A study of Mus musculus with 2 samples.

Results

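Interleukin 6 (Il6), oncostatin M (Osm) and leukaemia inhibitory factor (Lif), the receptor chains Il6ra, Il6st and Osmr, the feedback inhibitor Socs3 and the transcription factor Stat3 were described across the cell types of the inflamed mouse lung. These 8 genes were taken by symbol from the 32285 genes of both count matrices, and each symbol matched 1 gene. The study measured RNA in single cells of the lung (the lower lobe on the left side). The animals were male mice aged 6 to 8 weeks of the outbred ICR stock. One library came from mice given lipopolysaccharide (LPS), a bacterial cell wall component that inflames the lung, and the other (LPS_MCZ) from mice given LPS and miconazole, an azole antifungal injected into the peritoneum. Its dose is 0.2 mg/kg by the label of the sample but 1 mg/kg by the treatment protocol. Each library was a pool of all mice of its group, the sources used here state neither the number of mice nor the dose and timing of LPS, and no library of untreated mice was analysed here.

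Il6, oncostatin M and LIF belong to the interleukin 6 family and signal through the shared chain gp130, encoded by Il6st. Il6 first binds its own chain Il6ra, while oncostatin M pairs gp130 with Osmr and LIF pairs it with the LIF receptor. The paired chains activate Janus kinases, which phosphorylate Stat3, and Stat3 then drives genes that include Socs3, a protein that blocks gp130 in return. Cells without Il6ra can still respond where a soluble form of that receptor, shed by leukocytes, carries Il6 to gp130.

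After filtering there were 12075 cells in the LPS library and 8314 cells in the LPS_MCZ library, at medians of 5809 and 6180.0 UMIs (unique molecular identifiers, each standing for 1 captured transcript) per cell. The 8 genes together took 133294 and 93988 UMIs, 0.150% and 0.138% of each library. Cells fell into 25 clusters, each of which met a marker set. Of these, 20 formed 13 named classes and 5 stayed numbered, for low depth or for leading genes of another class. The libraries shared 243 cell barcodes, and the doublet caller did not work, since it marked 1 and 0 cells. With each group seen in 1 library, groups could not be tested against each other, and miconazole and library cannot be told apart. Levels are CPM, the UMIs of a gene per 1000000 UMIs of a class. Ratios are log2 of LPS_MCZ over LPS with 1 CPM added to each level, and a ratio past 0.5 in either direction is called higher or lower. Brackets hold 95% intervals of the ratio without that addition, which cover counting error only and not the spread between cells or between mice. A gene counted as measured in a class where it had at least 50 UMIs over both libraries. Free RNA, which leaks from broken cells and is captured with other cells, was estimated for each class from the neutrophil transcripts S100a8 and S100a9, and a level counted as not told apart from it where that estimate reached 0.5 of the level in either library.

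Over whole libraries, Il6 stood at 75.3 CPM without miconazole and 43.1 CPM with it, and its ratio was -0.79 [-0.87, -0.74]. Lif, at 7.34 and 3.96 CPM, had a ratio of -0.75 [-1.10, -0.69]. Osm stood at 293 and 227 CPM, a ratio of -0.37 [-0.40, -0.34]. The ligands were thus the lower genes of the set, with 2 of 8 members lower past 0.5 and 0 higher, where 3.04% of all 15501 measured genes were lower and 4.94% higher. Il6ra was somewhat more abundant in LPS_MCZ, at 98.9 and 118 CPM (0.25 [0.21, 0.29]). Il6st, Osmr, Socs3 and Stat3 had ratios between -0.12 and -0.01.

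**Figure D1:**
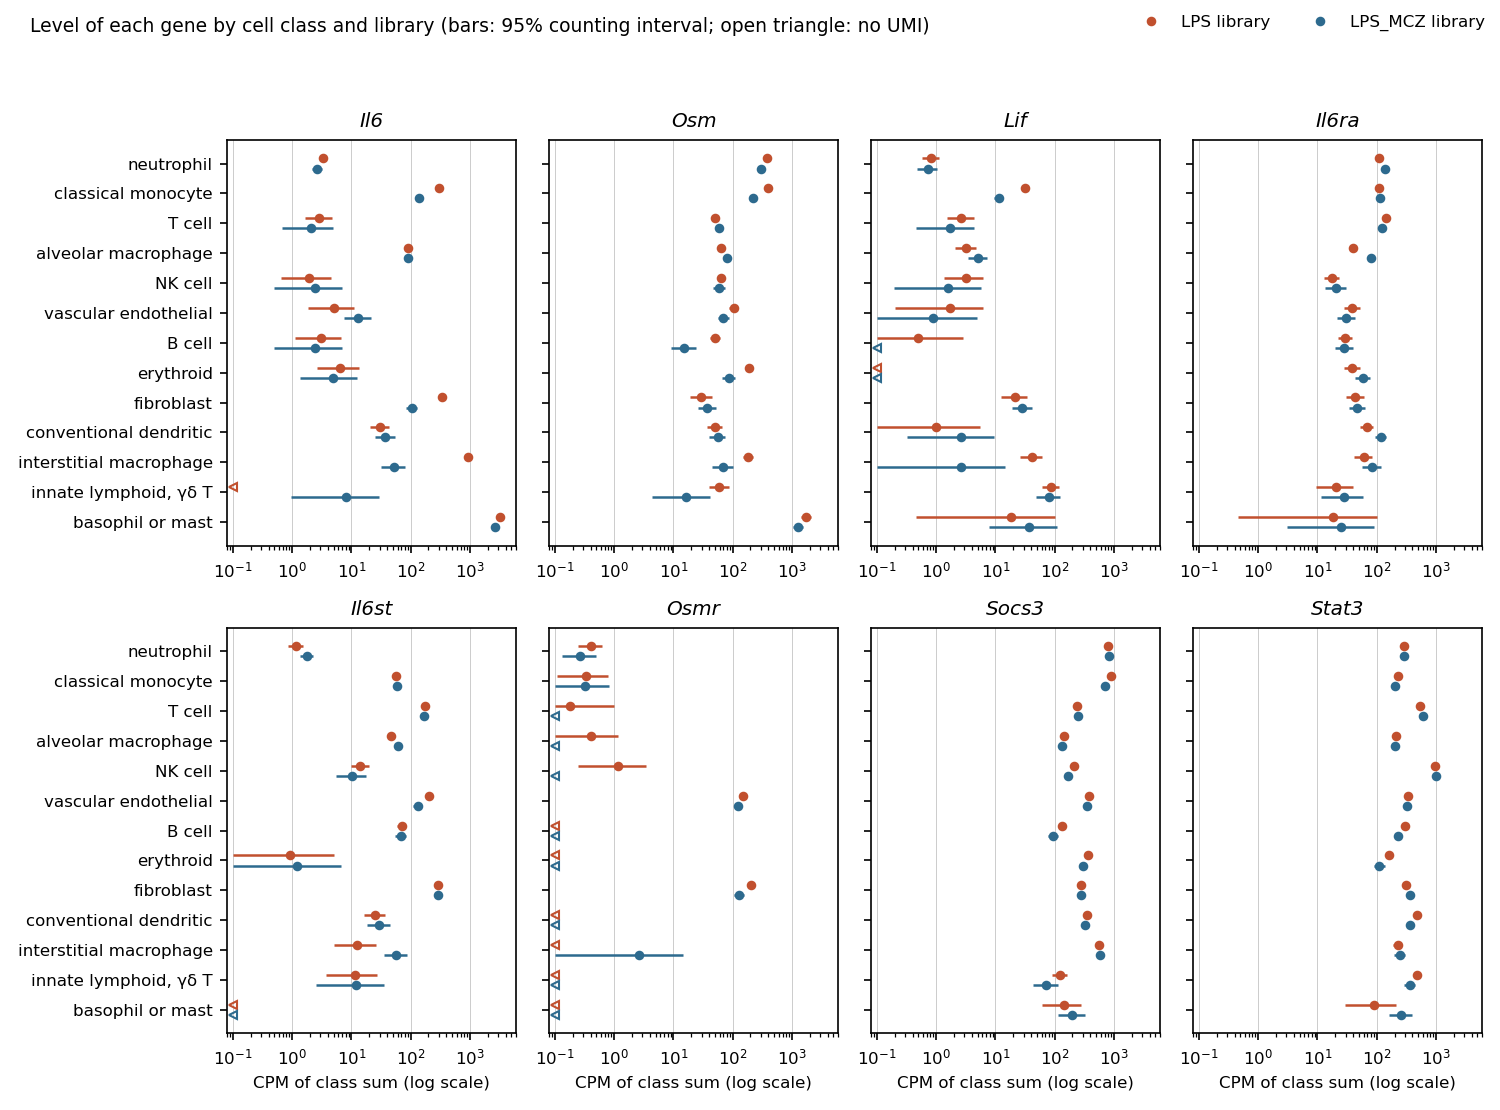
Level of each of the 8 genes in CPM (x axis, log scale) in the 13 named cell classes (y axis), with 1 point per library and bars for the 95% counting interval; open triangles mark 0 UMIs. Il6 is at 3255 CPM in the basophil or mast-like cells of LPS and at 3.34 CPM in its neutrophil-like cells, and Osmr is near 0 outside fibroblast-like and endothelial-like cells.

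The genes lie on 5 chromosomes of the GRCm38 (mm10) build. Il6 is on chromosome 5, from 30013114 to 30019981. Osm (4236420 to 4241026) and Lif (4257557 to 4272514) are neighbours in position on chromosome 11, on the same strand and 16530 bases apart. Socs3 (117966079 to 117970047) and Stat3 (100885098 to 100939540) lie on chromosome 11 as well, Il6ra on chromosome 3, Il6st on chromosome 13 and Osmr on chromosome 15. The 250 bases before the RefSeq start site of Il6, Lif and Socs3 are shown, because Il6 and Lif were lower together in 1 cell class and because Socs3 is the target gene of the pathway. They come from RefSeq on GRCm38.p6, and 7 of the 8 genes had an entry. Capitals mark matches, on either strand, to 5 motifs: TTCNNNGAA for STAT factors, TTGNGCAA for C/EBP factors, ACGTCA for the CRE, TGANTCA for AP-1, and for NF-kB the letters GGG, any 2 bases and TTTCC. No 2 matches overlapped. Printing stops where GENCODE places an exon of the gene, which leaves out the last 11 bases of the Lif window and the last 85 of the Socs3 window. The RefSeq start sites can differ from the gene spans given above, and the whole Socs3 window lies inside the span of its gene.
Il6, chr5:30012864-30013113, plus strand: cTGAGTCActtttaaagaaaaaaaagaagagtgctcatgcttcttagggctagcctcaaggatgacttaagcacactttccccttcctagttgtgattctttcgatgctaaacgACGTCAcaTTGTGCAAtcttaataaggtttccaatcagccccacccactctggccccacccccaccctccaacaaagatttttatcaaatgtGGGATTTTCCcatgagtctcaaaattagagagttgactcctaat
Lif, chr11:4257318-4257556, plus strand: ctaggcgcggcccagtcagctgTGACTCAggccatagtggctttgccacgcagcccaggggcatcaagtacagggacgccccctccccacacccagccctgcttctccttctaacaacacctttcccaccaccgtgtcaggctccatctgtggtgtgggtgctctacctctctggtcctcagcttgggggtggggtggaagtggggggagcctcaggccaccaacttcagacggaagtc
Socs3, chr11:117969452-117969616, minus strand: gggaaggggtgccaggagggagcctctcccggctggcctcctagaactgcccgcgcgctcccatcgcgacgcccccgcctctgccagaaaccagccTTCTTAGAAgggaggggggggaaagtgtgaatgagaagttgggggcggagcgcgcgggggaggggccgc

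The Il6 window held the NF-kB motif as GGGATTTTCC, 44 bases before the start site, the C/EBP motif as TTGTGCAA at 128 bases, the CRE letters at 136 bases and the AP-1 motif as TGAGTCA at 249 bases. Over 32851 windows of this length, 1.41% held the NF-kB motif, 2.61% the C/EBP motif, 6.47% the CRE letters and 6.75% the AP-1 motif. The Lif window held 1 match, the AP-1 motif as TGACTCA at 228 bases. The Socs3 window held the STAT motif as TTCTTAGAA, 154 bases before the RefSeq start site and inside the gene span given above. Of all windows 7.02% held this motif in some form. The windows of Il6ra, Il6st, Osmr and Stat3 held none of the 5 motifs, which says only that these letters are not in those 250 bases. The Osmr window, too, lies inside the span of its gene, and it begins in an exon placed by GENCODE.

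Classical monocyte-like cells were the main source of Il6 transcripts in both libraries. They held 66.6% of the Il6 UMIs of the LPS library and 58.8% of those of the LPS_MCZ library, while making up 7.25% and 7.71% of cells. The class had 876 and 641 cells and summed its 7 markers (Ly6c2, Ccr2, F13a1 and others) to 5645 and 5556 CPM. All 3 ligands were lower in LPS_MCZ there, the only members past 0.5 among 7 measured. Of all 10899 genes measured in the class, 4.42% were lower and 4.02% higher.

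Il6, the cytokine that drives fever and the acute phase response, stood at 299 CPM in the monocyte-like cells of the LPS library and 138 CPM in those of the LPS_MCZ library, a ratio of -1.11 [-1.20, -1.03]. After thinning every cell to 2000 UMIs, 28.3% of LPS cells and 18.5% of LPS_MCZ cells held an Il6 UMI, and 59.8% and 50.7% before thinning. Erythroid-like cells, which should lack the gene, held one in 1.40% and 0.885% of thinned cells (median depths 6350 and 5943 UMIs, against 14612.5 and 16680 in the monocyte-like cells). Expression was uneven between cells: 74 of the 876 LPS cells and 49 of the 641 LPS_MCZ cells together carried 0.5 of the Il6 UMIs of the class.

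Osm, a cytokine that acts on stromal and endothelial cells, stood at 397 and 219 CPM in the same cells, a ratio of -0.86 [-0.92, -0.79]. Thinned shares of cells with an Osm UMI were 41.0% and 25.8%, beside 21.7% and 7.08% in erythroid-like cells. Lif, which signals through the LIF receptor and gp130, stood at 31.8 and 11.3 CPM, a ratio of -1.41 [-1.77, -1.22]. The class joined 2 clusters. In the larger one the ratios were -1.14 for Il6, -0.88 for Osm and -1.58 for Lif. In the smaller one, 66 and 43 cells led by F13a1, Ccl2 and the cell cycle gene Top2a, they were -0.91, -0.68 and 0.02 [-0.85, 0.88], so Lif was not lower in that cluster. Stat3 was lower there, at 202 and 126 CPM (-0.68 [-0.92, -0.45]).

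The receiving side of the pathway differed little between libraries in monocyte-like cells. Il6ra stood at 111 and 116 CPM (0.05 [-0.05, 0.15]) and Il6st at 57.4 and 57.7 CPM (0.01 [-0.14, 0.15]). Both chains were seen in the same cell in 37.1% and 39.9% of cells. Socs3 stood at 878 and 719 CPM (-0.29 [-0.33, -0.25]) and Stat3 at 231 and 202 CPM (-0.20 [-0.27, -0.12]), both lower by less than 0.5. Osmr had 5 and 4 UMIs in the whole class.

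**Figure D2:**
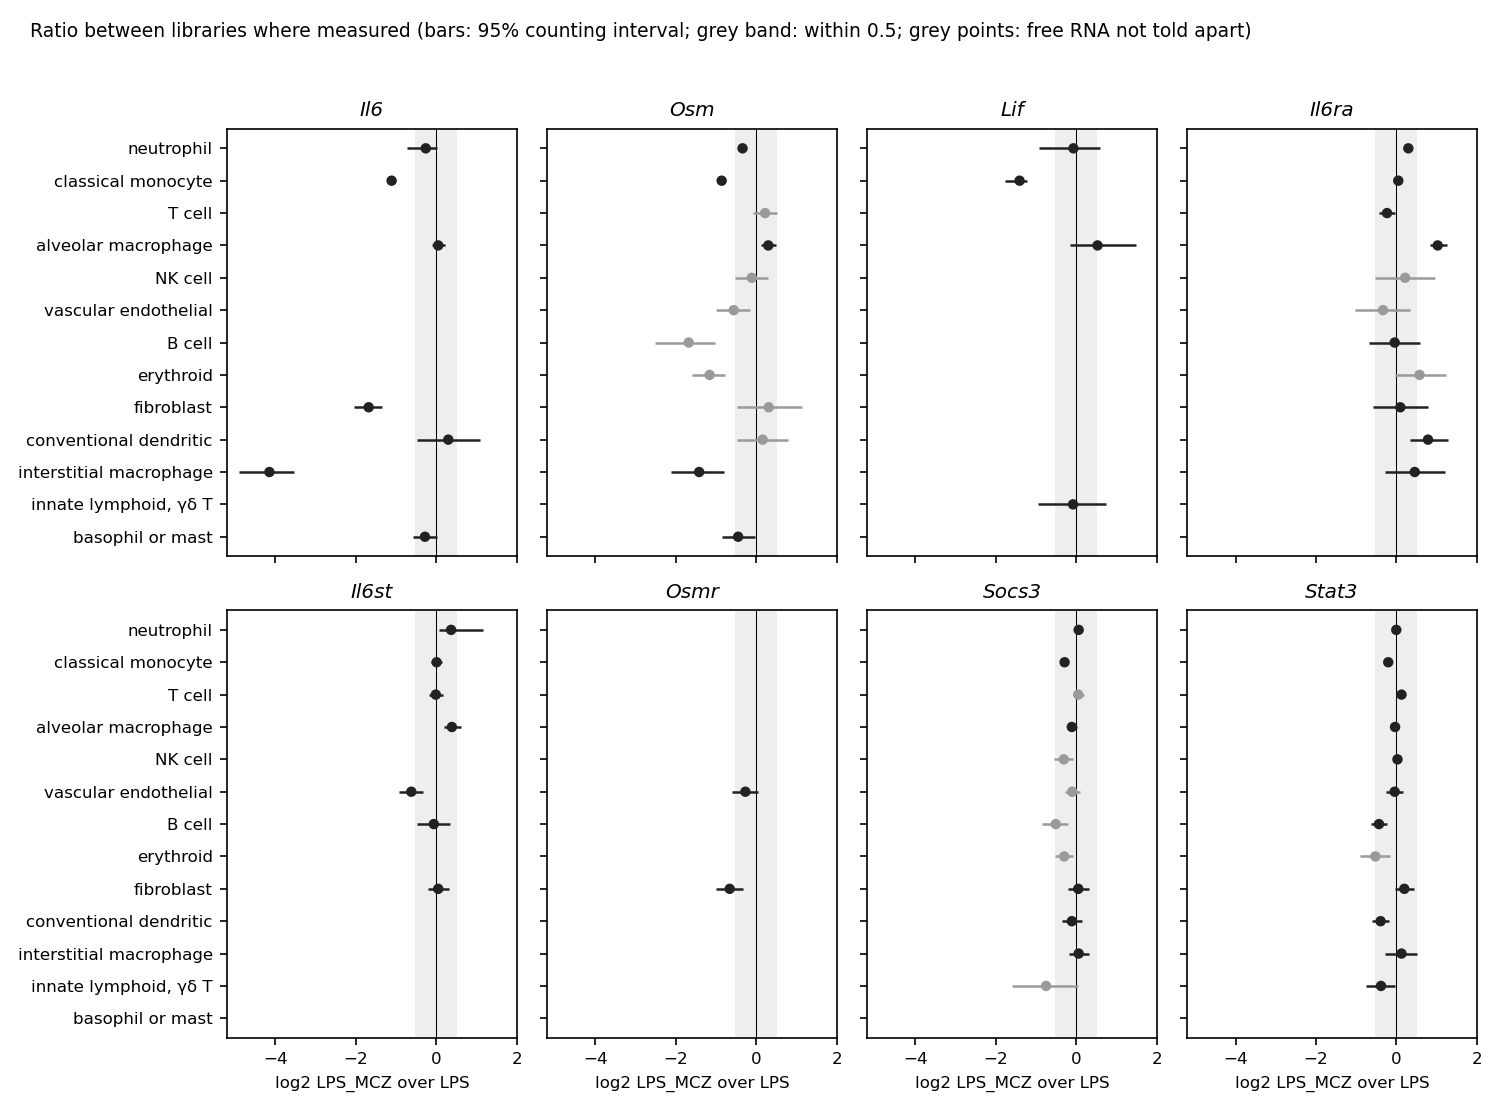
log2 ratio of LPS_MCZ over LPS (x axis) for each of the 8 genes in each named class (y axis) where the gene was measured, with 95% counting intervals; the grey band spans ratios within 0.5 and grey points mark levels that free RNA could reach. Il6, Osm and Lif lie left of the band in classical monocyte-like cells (-1.11, -0.86 and -1.41), and Il6ra lies right of it in alveolar macrophage-like cells (1.03), whose 2 subsets differ in share between libraries.

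Interstitial macrophage-like cells, led by Cxcl13, C1qa and Pf4, showed the widest Il6 gap of the classes measured. The 50 cells of the LPS library held 529 Il6 UMIs (947 CPM) and the 36 cells of the LPS_MCZ library 20 UMIs (52.4 CPM), a ratio of -4.15 [-4.90, -3.53]. In the LPS library 12 of the 50 cells had between 13 and 119 Il6 UMIs and 29 had 0. In the LPS_MCZ library the highest cell had 9 and 31 of 36 had 0. With cells weighted equally rather than by depth the ratio was -2.03, and without the highest cell of each library it was -4.65.

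Osm was lower there too, at 184 and 68.1 CPM (-1.42 [-2.12, -0.80]), so that 2 of 5 measured members were lower and 0 higher, against 14.0% lower and 26.9% higher of all 2879 genes measured. The median ratio of those genes was 0.16. Socs3, at 557 and 582 CPM, and Stat3, at 226 and 246 CPM, lay within 0.5, with ratios of 0.06 [-0.19, 0.32] and 0.13 [-0.27, 0.52]. The class was not made up alike in both libraries: its own 7 markers summed to 5559 and 10776 CPM, the 8 neutrophil markers to 21068 and 12778 CPM and the 7 classical monocyte markers to 3465 and 2146 CPM, with every marker of these lists detected. Median depth was 10398 and 6347 UMIs, and 21 of the 50 LPS cells and 5 of the 36 LPS_MCZ cells were among the highest doublet scores. Without those cells the Il6 ratio was -3.80, and the part that the uneven make-up had in it was not tested.

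Fibroblast-like cells were the only named class outside the immune cells with Il6 measured. The level was 334 CPM in 94 LPS cells and 104 CPM in 86 LPS_MCZ cells, a ratio of -1.68 [-2.04, -1.35]. Few cells carried it: 1 LPS cell held 88 of the 270 UMIs, and 3 LPS cells and 2 LPS_MCZ cells held 0.5 of the UMIs. With a stricter cell filter the ratio was -1.10, and with cells weighted equally -2.32. The 8 fibroblast markers summed to 18698 and 12666 CPM and the 8 neutrophil markers to 9277 and 18783 CPM in these cells, and the part of this in the ratio was not tested.

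**Figure D3:**
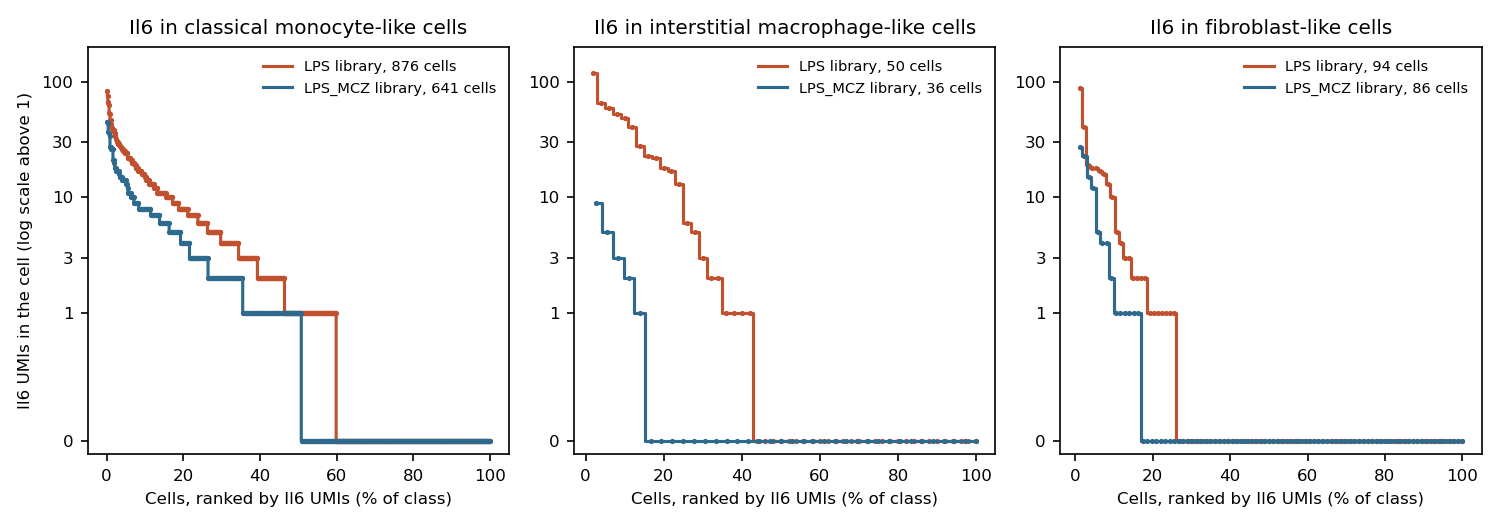
Il6 UMIs in each cell (y axis, log scale above 1) of the classical monocyte-like, interstitial macrophage-like and fibroblast-like classes, with cells ranked from high to low along the x axis as a percentage of the class and 1 line per library. The LPS line lies above the LPS_MCZ line over most cells with an Il6 UMI in the monocyte-like class, and the interstitial class has LPS cells up to 119 UMIs against 9 in LPS_MCZ.

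Alveolar macrophage-like cells as a class had close Il6 levels in both libraries. Il6 stood at 88.5 CPM in 347 LPS cells and 91.9 CPM in 267 LPS_MCZ cells, a ratio of 0.05 [-0.11, 0.22]. They held 9.86% of the Il6 UMIs of the LPS library and 19.8% of those of the LPS_MCZ library. Osm stood at 64.7 and 79.9 CPM (0.30 [0.12, 0.49]). Lif had 24 and 32 UMIs (3.21 and 5.07 CPM), and its ratio of 0.53 had an interval from -0.15 to 1.49. The class was not made up alike in both libraries. Clustered without the members and the pathway list, it fell into a subset of 288 LPS and 104 LPS_MCZ cells, led by Slc7a2, Lpl and Car4, and a subset of 68 and 163 cells, led by Plet1 and Mrc1. Within the former Il6 stood at 85.8 and 47.9 CPM (-0.83 [-1.13, -0.56]) and the latter held 120 and 451 Il6 UMIs (0.31 [0.02, 0.62]). The class ratio of Osm was seen in neither subset, with -0.37 [-0.68, -0.07] in the former and 0.05 [-0.24, 0.36] in the latter. For Lif, from 11 and 13 UMIs and from 14 and 19 UMIs, the ratio was 1.09 [0.20, 2.77] in the former and -1.02 [-2.23, -0.05] in the latter. This split was examined after the shares of the subsets by library had been seen. Cluster 7, with 287 and 161 cells, also met the 10 alveolar macrophage markers. It stayed numbered for its low depth (medians of 1080 and 739 UMIs) and is not part of the class. Its Il6 stood at 148 and 107 CPM (-0.47 [-0.92, -0.05]), within 0.5.

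Of the 2 receptor chains for Il6, Il6ra was higher in the alveolar macrophage-like cells of LPS_MCZ as a class. Il6ra, the binding chain, stood at 39.4 and 81.6 CPM, a ratio of 1.03 [0.84, 1.26], and 9.65% and 16.9% of thinned cells held a UMI. Erythroid-like cells, which should lack Il6ra, held one in 8.39% and 7.96% of thinned cells, close to the LPS share, while the free RNA expected in alveolar macrophage-like cells was 5.43 and 9.86 CPM. Within the subsets the gap was smaller: Il6ra stood at 27.3 and 41.2 CPM (0.57 [0.23, 0.94]) in the subset with more LPS cells and at 105 and 112 CPM (0.08 [-0.21, 0.38]) in the one with more LPS_MCZ cells. The 2 subsets differed in share between libraries, and the part of those shares in the class ratio was not tested. Il6st stood at 46.6 and 61.5 CPM (0.39 [0.19, 0.61]), within 0.5 in the class. Its ratio was 0.19 [-0.1, 0.48] in the subset with more LPS cells. In the other subset it passed 0.5, at 38.5 and 66.4 CPM (0.77 [0.33, 1.27]). Both chains were seen together in 73 of 347 LPS cells and 133 of 267 LPS_MCZ cells (49.8%), at close median depths of 21834 and 22884 UMIs. In erythroid-like cells they were together in 0 of 167 and 0 of 138 cells, where 3 counts over the cells, the limit used here for a count of 0, allow up to 1.80% and 2.17%. Within the subsets the shares with both chains were 20.1% and 36.5% in the subset with more LPS cells, and both chains were seen in 17 of 68 and 95 of 163 cells (58.3%) of the other. Socs3 (143 and 133 CPM, -0.11 [-0.24, 0.02]) and Stat3 (208 and 203 CPM, -0.03 [-0.14, 0.07]) lay within 0.5 in the class, while in the subset with more LPS_MCZ cells Socs3 stood at 237 and 137 CPM (-0.79 [-1.0, -0.58]) and Stat3 at 383 and 253 CPM (-0.60 [-0.76, -0.43]). Of 7 measured members 2 were higher, Il6ra and Lif, and 0 lower, against 11.8% higher and 6.08% lower of 9737 genes. The 10 alveolar macrophage markers summed to 11429 and 14143 CPM, and the 7 classical monocyte markers, of which Chil3 is on both lists, to 5804 and 7705 CPM.

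Neutrophil-like cells, 62.9% and 69.0% of all cells, held most of the Osm transcripts. They carried 69.0% of the Osm UMIs in LPS and 73.4% in LPS_MCZ. The level was 384 and 303 CPM, a ratio of -0.34 [-0.37, -0.30], and thinned shares of cells with a UMI were 38.6% and 33.8%, beside 21.7% and 7.08% in erythroid-like cells. The ratio was below 0 in all 7 neutrophil-like clusters, from -0.13 [-0.30, 0.02] in cluster 9, led by stefin and granule genes, to -1.07 [-1.31, -0.83] in cluster 8, which held 49 and 61 cells led by Il23a and G0s2.

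Neutrophil-like cells carried the binding chain of the Il6 receptor with almost none of the signalling chain. Il6ra stood at 111 and 136 CPM (0.30 [0.25, 0.36]) and was found in 41.6% and 50.4% of cells, beside 18.6% and 23.2% of erythroid-like cells. Il6st stood at 1.15 and 1.77 CPM, with a UMI in 0.684% and 1.15% of cells, and both chains were seen in 0.316% and 0.767%. Erythroid-like cells, which should lack Il6st, stood at 0.920 and 1.22 CPM from 1 UMI in each library. The counting intervals of those erythroid-like levels ran from 0.0233 to 5.13 and from 0.0308 to 6.79 CPM. They are too wide to tell the neutrophil-like level of Il6st from that of erythroid-like cells.

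Socs3 was abundant in the same cells, at 808 and 840 CPM (0.06 [0.03, 0.08]). It varied more between neutrophil-like clusters than between libraries: cluster 0, led by Il23a and G0s2, had 1478 and 1472 CPM, and cluster 10, led by the immature granule genes Camp, Ltf and Ngp, had 334 and 342 CPM. Il6ra followed a like order at its ends, with 145 and 180 CPM in cluster 0 and 72.2 and 73.8 CPM in cluster 10. Stat3 ranged over clusters from 269 to 315 CPM in LPS and from 244 to 353 CPM in LPS_MCZ. None of the 7 measured members passed 0.5 in the class as a whole, while 12.6% of its 10632 genes were higher and 4.34% lower. The median ratio of those genes was 0.12, and against it the Il6ra ratio was 0.18 and the Osm ratio -0.46.

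**Figure D4:**
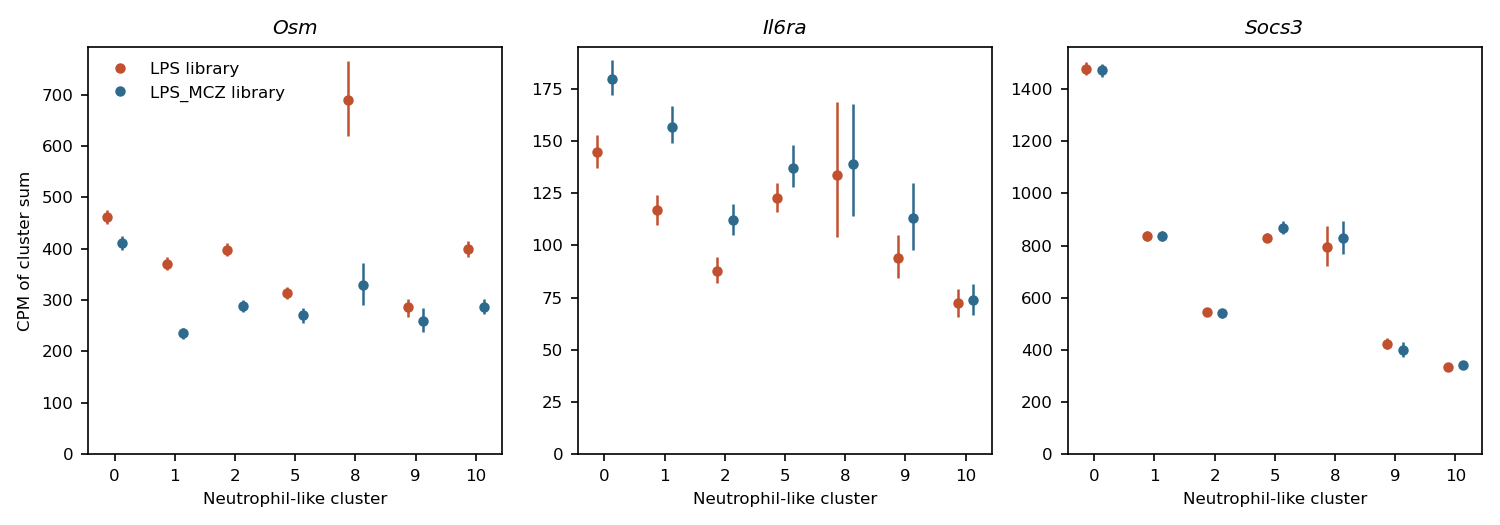
Level of Osm, Il6ra and Socs3 in CPM (y axis) in the 7 neutrophil-like clusters (x axis), 1 point per library with 95% counting intervals. The Osm point of LPS_MCZ lies below that of LPS in each cluster (ratios from -1.07 to -0.13), while Socs3 runs from 1478 CPM in cluster 0 to 334 CPM in cluster 10 in LPS with the LPS_MCZ points close beside.

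Basophil or mast-like cells had the highest Il6 level of any class, although only 8 and 11 cells were found. Of the 467 genes measured in them 20.1% were lower and 22.5% higher, and 0 of 2 measured members were either. All of the cells held an Il6 UMI, at 3255 and 2686 CPM (-0.28 [-0.57, 0.02]), and Osm stood at 1744 and 1281 CPM (-0.45 [-0.86, -0.03]). Il6 was among the 10 leading genes of the cluster, with Mcpt8, Gata2, Il4 and Il13, so this level is a description of cells that clustered partly by it. The class held 2.70% and 7.37% of Il6 UMIs. Of the 8 LPS cells 7 were among the highest doublet scores, and of the 11 LPS_MCZ cells 0.

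Innate lymphoid and gamma-delta T-like cells, led by Calca, Il17a and Il22, had the highest Lif level. It stood at 85.3 CPM in 52 LPS cells and 80.4 CPM in 27 LPS_MCZ cells, a ratio of -0.08 [-0.95, 0.74]. With 1 LPS_MCZ cell holding 11 of the 20 UMIs there, the level rests on few cells.

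Fibroblast-like and endothelial-like cells were the classes with the oncostatin receptor. Osmr, the chain that pairs with gp130 to bind oncostatin M, stood at 204 and 129 CPM in fibroblast-like cells (-0.66 [-1.01, -0.32]), where the summed fibroblast markers had a ratio of -0.56 themselves. It stood at 149 and 123 CPM in vascular endothelial-like cells (-0.27 [-0.60, 0.05]). The former held 40.5% and 41.2% of all Osmr UMIs and the latter 43.5% and 47.6%. No other named class had more than 19 UMIs of it in a library, and B cell-like, erythroid-like and conventional dendritic-like cells had 0, which allows up to 1.51, 2.76 and 3.00 CPM in LPS. The equal-weight mean over fibroblast-like cells gave an Osmr ratio of -0.31.

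Il6st, the shared chain, stood at 285 and 295 CPM in fibroblast-like cells (0.05 [-0.21, 0.31]) and at 202 and 131 CPM in endothelial-like cells (-0.62 [-0.93, -0.32]). One LPS endothelial-like cell held 42 of the 240 UMIs, and without the highest cell of each library the ratio was -0.39, within 0.5. Osmr and Il6st were seen together in 45.7% and 44.2% of fibroblast-like cells and in 16.9% and 17.5% of endothelial-like cells. In neutrophil-like cells that was 0 of 7597 and 0 of 5736 cells, which allows up to 0.0395% and 0.0523%. Of 7 measured members 2 were lower in fibroblast-like cells, Il6 and Osmr, against 14.7% lower and 10.1% higher of 5441 genes. Of 6 in endothelial-like cells 2 were lower, Il6st and Osm, against 8.39% lower and 11.4% higher of 6292 genes. The Osm level of endothelial-like cells, 104 and 70.0 CPM, lay close to the 114 and 68.7 CPM that free RNA would give.

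**Figure D5:**
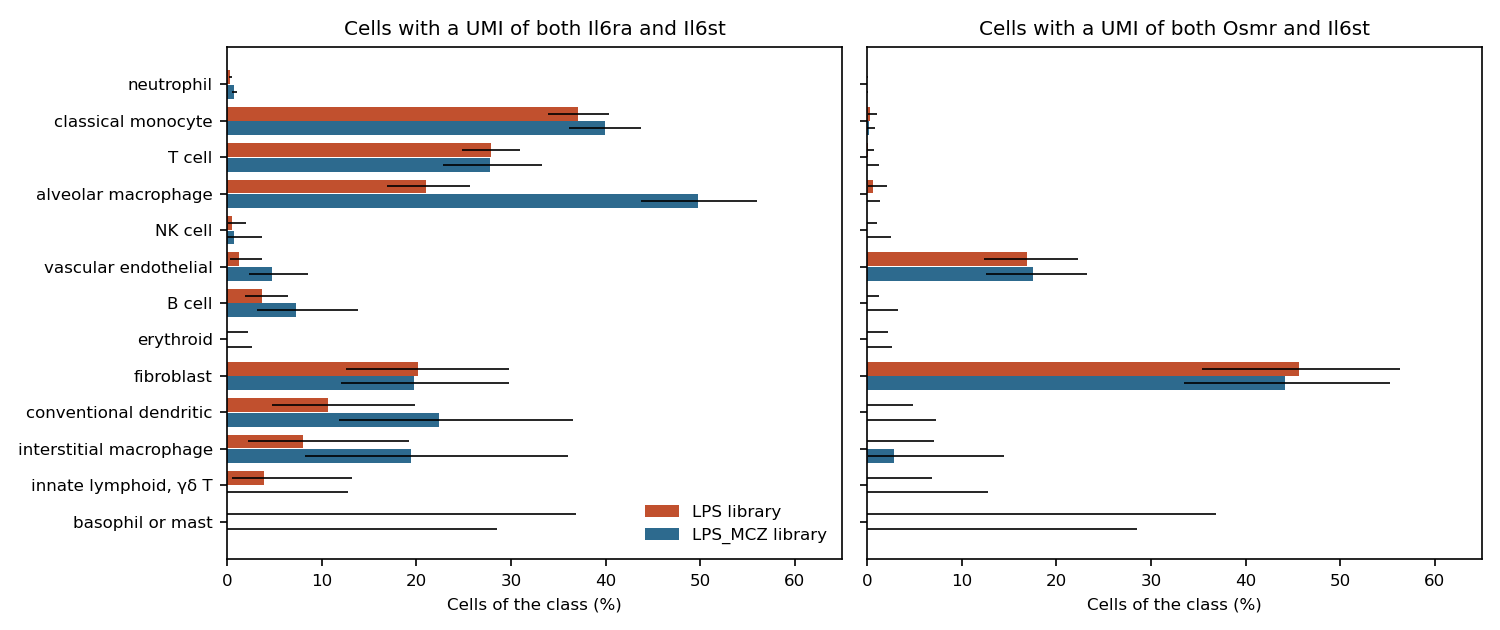
Share of cells of each class (x axis, percent) with a UMI of both Il6ra and Il6st (left) or both Osmr and Il6st (right), 1 bar per library with 95% binomial intervals, without thinning. The Il6 receptor pair reaches 49.8% in alveolar macrophage-like cells of LPS_MCZ, and the oncostatin receptor pair reaches 45.7% in fibroblast-like cells and is near 0 in leukocytes.

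T cell-like cells held both chains of the Il6 receptor. Il6ra stood at 143 and 122 CPM (-0.23 [-0.43, -0.03]), Il6st at 172 and 171 CPM (-0.01 [-0.18, 0.16]), and both were seen in 27.9% and 27.8% of cells. NK cell-like cells had the highest Stat3 of the named classes, 984 and 1007 CPM (0.03 [-0.06, 0.13]), followed by T cell-like cells at 544 and 594 CPM (0.13 [0.03, 0.22]). Il6ra in NK cell-like cells, 17.6 and 20.7 CPM, could not be told apart from free RNA. None of the 5 members measured in T cell-like cells and of the 4 in NK cell-like cells passed 0.5, where 4.63% and 7.13% of genes were lower and 6.99% and 5.71% higher.

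Conventional dendritic-like cells had more Il6ra in LPS_MCZ, 68.1 and 119 CPM (0.79 [0.33, 1.28]) in 75 and 49 cells. Stat3 stood at 480 and 366 CPM (-0.39 [-0.61, -0.17]). Il6ra was the 1 of 5 measured members that was higher, and 0 were lower, while 16.7% of 4987 genes were higher and 12.1% lower. Thinned shares with an Il6ra UMI were 11.9% of 59 cells and 26.2% of 42 cells. Il6 had 30 and 28 UMIs (0.30 [-0.48, 1.10]).

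The levels of Osm and Socs3 in T, NK and B cell-like and in erythroid-like cells were not told apart from free RNA by the rule above. For Osm the expected free level was 51.8 and 45.0 CPM in T cell-like cells, where 50.2 and 58.7 CPM were measured, and 242 and 159 CPM in erythroid-like cells, where 192 and 85.2 CPM were measured. For Socs3 it was 118 and 132 CPM in T cell-like cells, where 242 and 251 CPM were measured. Of the members that passed 0.5, 7 were in this state: Osm in endothelial-like, B cell-like and erythroid-like cells, Socs3 in B cell-like and in innate lymphoid and gamma-delta T-like cells, and Il6ra and Stat3 in erythroid-like cells. B cell-like cells had 2 of 5 measured members lower and 0 higher, beside 9.3% lower and 12.1% higher of all genes. Erythroid-like cells had 2 of 4 lower and 1 higher, beside 25.3% and 11.8%. Innate lymphoid and gamma-delta T-like cells had 1 of 3 lower and 0 higher, beside 18.8% and 9.1%. Stat3 in B cell-like cells stood above the free level, at 304 and 226 CPM (-0.43 [-0.64, -0.22]), as did Il6st at 70.7 and 67.7 CPM (-0.06 [-0.47, 0.34]).

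Cluster 17 (222 and 116 cells) met the nonclassical monocyte markers but had Pecam1 among its leading genes, so it kept its number. It had the highest Socs3 among the named classes and numbered clusters, at 1351 and 1084 CPM (-0.32 [-0.42, -0.22]). It also had the highest Il6ra, at 183 and 206 CPM (0.17 [-0.07, 0.41]). Its Il6 stood at 72.5 and 33.5 CPM (-1.09 [-1.67, -0.59]), the 1 of 6 measured members lower past 0.5, with 0 higher, where 6.18% of genes were lower and 8.55% higher.

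Other genes of the pathway were followed with a list of 60 genes, none of them members: further family cytokines, receptors, shedding enzymes, kinases, brakes, other STAT factors, Stat3 targets and acute phase genes. In classical monocyte-like cells 49 were measured, 7 were higher and 5 lower, with a median ratio of -0.04 beside 0.02 for all genes. Of all genes in the class 4.02% were higher and 4.42% lower. Of 6 acute phase genes measured 4 were higher, where 4.02% of all genes were, in a class in which free RNA was not judged: Lcn2, an iron-siderophore binding protein, at 1925 and 3435 CPM (0.83 [0.81, 0.86]), Hp, which encodes haptoglobin, at 884 and 1439 CPM (0.70 [0.67, 0.74]), and Lrg1 and Saa3. Il1rn, the interleukin 1 receptor antagonist, was the 1 lower, at 731 and 489 CPM (-0.58 [-0.63, -0.53]). Cish, a SOCS family brake, was lower at 73.2 and 30.3 CPM (-1.24 [-1.44, -1.10]). Of 20 Stat3 targets 2 were higher, Timp1 and Il10, and 3 lower, Cebpd, Ier3 and Pim2.

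In neutrophil-like cells 51 list genes were measured, 9 higher and 5 lower, beside 12.6% higher and 4.34% lower of all genes. Their median was 0.12, equal to that of all genes. Free RNA was not judged in this class. Saa3, serum amyloid A3, stood at 1162 and 598 CPM (-0.96 [-0.98, -0.94]) and Cish at 66.7 and 32.3 CPM (-1.02 [-1.14, -0.95]). Adam10, a protease that can shed Il6ra, stood at 32.1 and 57.9 CPM (0.83 [0.75, 0.95]). In alveolar macrophage-like cells 43 were measured and 4 were higher, where 11.8% of all genes were: Lepr, the leptin receptor, at 83.4 and 154 CPM (0.88 [0.74, 1.03]) and Bcl2l1 at 45.6 and 68.5 CPM (0.57 [0.38, 0.79]) were higher, and so were Lrg1 and Timp1, which could not be told apart from free RNA.

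The acute phase genes Saa1 and Saa3 lay on opposite sides in interstitial macrophage-like and fibroblast-like cells. In the interstitial class 5 of 6 acute phase genes measured were lower and 1 higher (Il1rn, not told apart from free RNA). Of all genes in that class 14.0% were lower and 26.9% higher. Saa1 stood at 460 and 31.4 CPM there (-3.83 [-4.84, -3.04]) and Saa3 at 48461 and 29160 CPM (-0.73 [-0.76, -0.70]). The neutrophil marker sum of this class, given above, was lower in LPS_MCZ. In the fibroblast class 5 of 7 were higher and 0 lower, beside 10.1% higher and 14.7% lower of all genes. Saa1 stood at 26.0 and 133 CPM there (2.31 [1.68, 3.10]) and Saa3 at 5464 and 10293 CPM (0.91 [0.86, 0.97]). The neutrophil marker sum of this class stood at 9277 and 18783 CPM, and the part of these sums in the ratios was not tested. Lcn2, Lrg1 and Hp could not be told apart from free RNA in either class, and whether the 2 classes differ was not tested. Over the whole list, 5 of 32 measured were higher and 11 lower in interstitial macrophage-like cells (median -0.25 beside 0.16 for all genes). Of all genes there 26.9% were higher and 14.0% lower. In fibroblast-like cells 7 of 37 were higher and 3 lower (0.00 beside -0.04), where 10.1% of all genes were higher and 14.7% lower.

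In endothelial-like cells 41 list genes were measured, 1 higher and 8 lower, beside 11.4% and 8.39% of all genes, with a median of -0.11 beside 0.02. The lower ones included the Stat3 targets Ier3 at 780 and 350 CPM (-1.15 [-1.33, -0.98]), Cebpd, a C/EBP factor, at 1242 and 606 CPM (-1.03 [-1.17, -0.90]), Bcl3 at 249 and 141 CPM (-0.82 [-1.11, -0.54]) and Hif1a, which made 4 of 17 targets lower and 0 higher. Socs3 did not go with them, at 375 and 351 CPM (-0.10 [-0.29, 0.10]), a level that could not be told apart from free RNA. Lifr, the LIF receptor, was the 1 higher, at 64.9 and 93.6 CPM (0.52 [0.09, 0.97]).

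The genes whose levels were most like each member were ranked by Pearson correlation of log2 CPM, with 10 CPM added, over 36 pairs of class or cluster and library among 10204 genes. The pairs share libraries and differ in depth, so the values are a description. Osmr was most like the endothelial and stromal genes Tm4sf1 (0.98), Ccn1 (0.98) and Parva (0.97). Osm was most like Lilr4b (0.92), Alox5ap (0.91), which encodes the activating protein of 5-lipoxygenase, and Lilrb4a (0.88). Socs3 was most like Pdlim4, Gpr35 and Irf7 (0.85 each), Il6st like Smim10l1 (0.85), Rpap3 (0.84) and Ccdc32 (0.83), and Stat3 like Abcb1a (0.80), Zswim6 (0.78) and Jak3 (0.78). Il6 was most like Ndst2 (0.77), Man2b1 (0.76) and Ccl9 (0.76), Lif like Il1rl1 (0.73), Hk2 (0.70) and Fam110a (0.69), and Il6ra like Twf2 (0.73), Slc8b1 (0.72) and Alpk1 (0.71).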

How the data were processed

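The authors deposited 10x Genomics matrices of raw UMI counts per gene and cell, 1 per library, made with Cell Ranger 7.0.0 per the file headers. The mm10 build and bcl2fastq 2.20 are per the submitters' processing notes, with no further filter stated. The matrices held 12577 and 8500 barcodes with 90597705 and 68467793 UMIs.

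Cells with at least 200 genes, 500 UMIs and at most 20% mitochondrial UMIs were kept. With scanpy 1.11.5, 2000 variable genes were scaled within each library, and cells were joined to 15 neighbours on 30 principal components and clustered by the Leiden method (igraph 0.11.9, resolution 1). A class name needed 3 or more markers whose level, with 20 CPM added, lay 1 or more log2 units above the 25th percentile over clusters. The class of highest mean ratio was taken, or one within 0.5 of it with more markers among the 10 leading genes. Clusters with more markers of another class among those genes, or a median depth under 0.3333 of the library's, stayed numbered. The members, gene lists and markers were chosen with earlier results of these data known. The scaling within libraries and the naming rules were settled after several versions of the clusters had been seen, and Il6 had by then appeared among the leading genes of the basophil or mast-like cluster. Ratios of the members were computed only on the last version.

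UMIs were summed by class and library into CPM, and Poisson, binomial (Clopper-Pearson) and conditional ratio intervals at 95% were computed with scipy 1.17.1 and tested on simulated counts. The free RNA level of a class was its S100a8 and S100a9 share relative to the library's, times the library's level of the gene. A level was not told apart from free RNA where that reached 0.5 of it in either library. Neutrophil-like and classical monocyte-like cells, which express S100a8 and S100a9, were not judged. For Il6 in the LPS library the estimate exceeded the measured level in some classes. It gave 13.3 CPM in T cell-like cells and 62.0 CPM in erythroid-like cells, where 2.85 and 6.44 CPM were measured. Doublets were scored with Scrublet, whose threshold marked 1 and 0 cells against expected rates of 9.66% and 6.65%, so the highest scores were removed only as an alternative. Cells under 2000 UMIs were left out of thinned shares (13 and 8 of the monocyte-like cells, 5 and 0 of the alveolar macrophage-like, 232 and 150 of the neutrophil-like, 24 and 25 of the erythroid-like). Named genes were every member where measured, list genes past 0.5 (at most 8 per class, by size; further ones, chosen after their values were seen, where they make up a count of 5 or fewer) and the 3 most alike genes per member. One list gene is not reported here.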

Additional observations from a re-analysis of the deposited data

How the results depend on the processing

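Over 13 named classes 67 pairs of member and class were measured, 14 lower and 4 higher by more than 0.5, where 4.34% to 25.3% of all genes of a class were lower and 4.02% to 26.9% higher. The 4 became 8 with cells weighted equally, 2 with 10 CPM added, 7 of 78 pairs with a minimum of 20 UMIs, 11 of 97 with a minimum of 1 UMI and 7 of 56 with the libraries clustered separately, and the 14 became 8 of 42 pairs once free RNA was subtracted. With separate clustering, the ratios in B cell-like cells turned to 1.15 for Osm and 1.39 for Socs3; the cause was not tested. The ratios of Il6, Osm and Lif in classical monocyte-like cells kept their direction past 0.5 under the 14 alternatives that gave a value, at -1.19 to -1.03, -0.88 to -0.81 and -1.49 to -0.97, as did Il6ra in alveolar macrophage-like cells under 15, at 0.89 to 1.54, though within the 2 subsets of that class it was 0.57 and 0.08. Il6 in interstitial macrophage-like cells ran from -4.65 to -2.03. Leaving out the highest cell and scaling both libraries together were chosen after seeing the data. No paired analysis was possible because each group had 1 library, and no replicate could be left out. Depth limits Lif and Osmr most, which had 654 and 407 UMIs in the LPS library.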

Other observations

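Among the numbered clusters, cluster 22, led by the epithelial genes Scgb1a1 and Sftpc, was the remaining place with Osmr, at 30 and 18 UMIs (64.5 and 43.3 CPM), of which 1 LPS cell held 12 and 1 LPS_MCZ cell 15.

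Below the minimum of 50 UMIs, interstitial macrophage-like cells held 23 Lif UMIs in LPS and 1 in LPS_MCZ (log2 interval from -9.34 to -1.35). They held 7 and 22 Il6st UMIs (12.5 and 57.6 CPM, interval from 0.92 to 3.67). By the rule used here the LPS level could not be told apart from free RNA, with 6.59 CPM expected. In erythroid-like cells the same estimate gave 28.3 and 23.0 CPM of Il6st, where 0.920 and 1.22 CPM were measured. Fibroblast-like cells held 17 and 27 Lif UMIs.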
